A study of Danio rerio with 6 samples.

Results

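The p53 pathway was followed here through 5 of its target genes, mdm2, ccng1, cdkn1a, bbc3 and gadd45aa. They were taken by name from a table of 21228 entries, and all 5 were found in it. The gene mdm4, a paralog of mdm2, is given beside them. Whole Tuebingen zebrafish embryos developed in DMSO vehicle alone (10C and 24C), in 5 μg/l pentachlorophenol (PCP; 10L and 24L) or in 200 μg/l PCP (10H and 24H), and were collected at 10 or 24 h post-fertilization (hpf). PCP is a chlorinated phenol once used to preserve wood, and DMSO was in all groups, PCP treatments included. Embryos of a group were pooled into 1 library, so no spread between replicates is known and every comparison is one of 2 libraries.

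The p53 protein is a transcription factor that responds to damaged DNA and other stress. Its level is held down by Mdm2, a ubiquitin ligase whose own gene is switched on by p53, so that the pair forms a feedback loop. Among its other targets, cdkn1a encodes p21, an inhibitor of cyclin-dependent kinases that stops the cell cycle, ccng1 encodes cyclin G1, which in mammals acts with Mdm2, gadd45aa encodes a small stress protein of growth arrest and DNA damage, and bbc3 encodes Puma, a BH3-only protein that starts apoptosis. In zebrafish embryos, loss of Mdm2 leads to p53-dependent cell death, and many kinds of damage are known to raise mdm2 and cdkn1a.

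The value of a gene is its normalized count, its reads multiplied by a factor set for each library. The reads behind it were recovered and came to between 47409208 and 59864868 per library. FC is the normalized count of the first library named over that of the second, and parentheses hold its 95% interval by the Clopper-Pearson method, for counting error alone. "Rose" and "fell" are kept for genes past both thresholds, over 2-fold in size and with p below 0.05 (not adjusted) by the exact binomial test (two-sided) of their reads. For stage, 10 markers of 10 hpf embryos summed to 56226 (10C), 43280 (10L) and 102684 (10H) normalized counts, and to 1385 (24C), 2465 (24L) and 11437 (24H). The 15 markers of 24 hpf embryos (blood, muscle, heart, lens, pigment and neurons) summed to between 974 and 1430 at 10 hpf, and to 737265 (24C), 432736 (24L) and 43119 (24H) at 24 hpf. In 24H, 9 of 10 early markers rose and 14 of 15 late markers fell (11.9% of all genes rose and 16.4% fell). In 24L, 5 early markers rose and 1 fell, and 4 late markers fell (3.5% of all genes rose and 4.18% fell). In 10H, 2 early markers rose, while 3 late markers rose and 2 fell (6.69% of all genes rose and 6.33% fell). The libraries thus differed in stage markers as well as in dose, 24L included. The part of stage in the results below was not tested. In pooled embryos, fewer cells of a type and less RNA per cell cannot be told apart.

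Of the 5 targets, 1 rose in 10H (gadd45aa) and 1 rose in 24H (mdm2), while none rose in 10L or 24L and none fell in any treated group. Of the 21217 genes tested, 6.04% were past the thresholds in 10L (3.65% higher, 2.39% lower) and 13.0% in 10H (6.69% higher, 6.33% lower). At 24 hpf it was 7.68% in 24L (3.5% higher, 4.18% lower) and 28.3% in 24H (11.9% higher, 16.4% lower). Each target had reads in all 6 libraries, and the lowest number was 79. The median log2 FC of the 5 targets at 10 hpf was 0.09 (10L) and 0.36 (10H), and at 24 hpf 0.56 (24L) and 0.67 (24H), beside medians of all genes of -0.02, 0.02, -0.02 and -0.03. At 24 hpf 4 of 5 targets had FCs above 1 at either dose, ccng1 being the exception, but the interval of bbc3 in 24L includes 1. Of all genes with at least 10 reads on average, 8255 of 17170 had FCs above 1 in 24L and 8368 of 17210 in 24H. Both doses were set against the same control library.

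**Figure D1:**
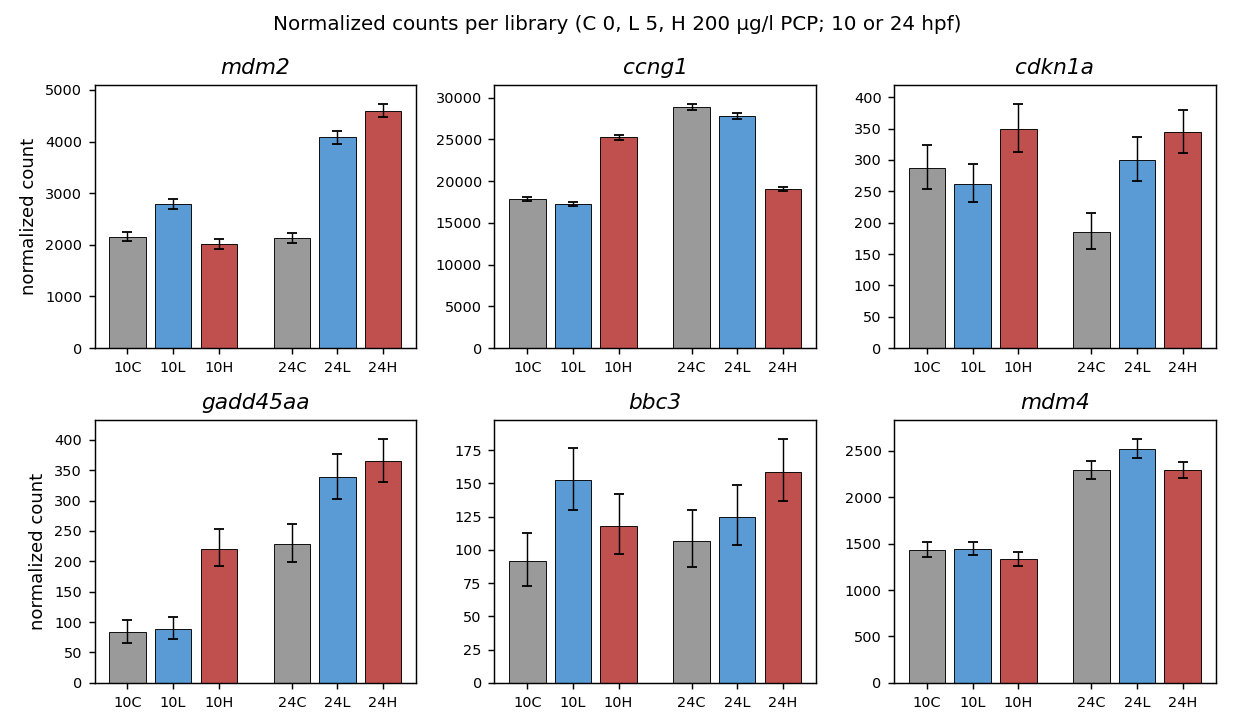
Normalized counts (vertical axes, from 0) of the 5 targets and of mdm4 in each of the 6 libraries; grey bars are vehicle, blue bars 5 μg/l and red bars 200 μg/l PCP, and error bars are 95% Poisson intervals of the reads. mdm2 stands at 2137 in 24C, 4083 in 24L and 4593 in 24H, while ccng1 is highest in 24C (28836).

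The feedback regulator mdm2 had 2158 (10C), 2784 (10L) and 2017 (10H) normalized counts at 10 hpf, and 2137 (24C), 4083 (24L) and 4593 (24H) at 24 hpf. The controls of both ages and 10H thus lay close together, and both PCP libraries at 24 hpf stood above the other libraries. In 24H mdm2 rose, with FC 2.15 (2.04 to 2.26), and this FC was higher than that of 87.7% of the genes with at least 10 reads on average. In 24L its FC was 1.91 (1.81 to 2.02), short of the 2-fold threshold but higher than that of 95.2% of genes. At 10 hpf the FC was 1.29 in 10L (1.22 to 1.36) and 0.935 in 10H (0.878 to 0.995). The doses differed little at 24 hpf, with FC 1.13 (1.08 to 1.17) for 24H over 24L. The call of mdm2 in 24H was lost at a 4-fold threshold and in the edgeR exact test with a biological variation coefficient of 0.4 assumed.

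The paralog of mdm2, mdm4, which encodes a further inhibitor of p53, had 1434 (10C), 1445 (10L) and 1336 (10H) normalized counts at 10 hpf, and 2290 (24C), 2522 (24L) and 2294 (24H) at 24 hpf. None of its FCs passed, and in 24H the FC of mdm4 was 1.00 (0.946 to 1.06). In the ratio of the FCs, which does not depend on how libraries are scaled, mdm2 exceeded mdm4 by 2.15 times in 24H (1.99 to 2.32, by a normal approximation on reads) and by 1.73 times in 24L (1.602 to 1.88).

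The cyclin G1 gene ccng1 was the most deeply sequenced of the 5, with 17037 to 26983 reads. It had 17876 (10C), 17234 (10L) and 25229 (10H) normalized counts at 10 hpf, and 28836 (24C), 27825 (24L) and 19057 (24H) at 24 hpf. The 200 μg/l library was thus the highest of its age at 10 hpf and the lowest at 24 hpf. Its FC was 1.41 in 10H (1.38 to 1.44) and 0.661 in 24H (0.649 to 0.673), and at 5 μg/l it was 0.964 in 10L (0.944 to 0.984) and 0.965 in 24L (0.949 to 0.981). None of these FCs passed the 2-fold threshold, although the intervals are narrow. In 24H the FC of mdm2 was 3.25 times (3.08 to 3.43) that of ccng1, and in 10H it was 0.662 times (0.620 to 0.707).

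The second cyclin G gene, ccng2, went with ccng1 at 10 hpf and had little change at 24 hpf. Its normalized counts were 1299 in 10C, 1176 in 10L and 3476 in 10H, and 2289 in 24C, 2717 in 24L and 2038 in 24H. In 10H ccng2 rose, with FC 2.68 (2.51 to 2.86), and in 24H its FC was 0.890 (0.839 to 0.944). In mammals ccng2 is known as a target of FoxO factors, and its regulator was not tested here.

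The p21 gene cdkn1a had 287 (10C), 262 (10L) and 349 (10H) normalized counts at 10 hpf, and 185 (24C), 300.1 (24L) and 345 (24H) at 24 hpf. The control at 24 hpf was the lowest of the 6 libraries, and the 24L and 24H libraries were within the range of the 10 hpf libraries. The FC of cdkn1a was 1.62 in 24L (1.34 to 1.97) and 1.86 in 24H (1.55 to 2.24), neither past the thresholds. At 10 hpf it was 0.911 in 10L (0.770 to 1.08) and 1.21 in 10H (1.03 to 1.43). The doses at 24 hpf could not be told apart at this depth, with FC 1.15 (0.985 to 1.34) for 24H over 24L.

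Of 8 CDK inhibitor genes in the table, cdkn1a included, none was called in 10L (6.04% of all genes were called). In 10H 1 fell (13.0% of all genes were called), in 24L 1 rose and 1 fell (7.68%), and in 24H 1 fell (28.3%). The relatives of p21 stayed within the thresholds against the controls. Their FCs in 24H were 1.26 (1.17 to 1.37) for cdkn1ba and 1.34 (1.21 to 1.49) for cdkn1bb, both p27 genes. The p57 genes had 0.965 (0.931 to 1.00) for cdkn1ca and 1.21 (0.997 to 1.47) for cdkn1cb. At 10 hpf cdkn1cb had 700 (10C), 464 (10L) and 1270 (10H) normalized counts, and it passed for 10H over 10L. In that comparison 16.4% of all genes were called and 7.69% were higher. The gene that fell at 24 hpf was cdkn2d, listed as LOC100333252, an inhibitor of CDK4 and CDK6 in mammals. It had 100.6 (24C), 49.5 (24L) and 5.17 (24H) normalized counts, and FC 0.492 in 24L (0.340 to 0.704) and 0.0514 in 24H (0.0184 to 0.116). In 10H the CDK-interacting phosphatase cdkn3 fell (FC 0.467, 0.356 to 0.609). The gene that rose in 24L, cdkn2a/b (listed as LOC100329528), had only 8 reads there, against 0 in 24C.

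The stress gene gadd45aa varied most of the 5, with a 4.40-fold range over the 6 libraries. It had 82.9 (10C), 88.5 (10L) and 221 (10H) normalized counts at 10 hpf, and 229 (24C), 338 (24L) and 365 (24H) at 24 hpf. The 10H library thus reached the level of 24C, while 10L stayed at that of 10C. In 10H gadd45aa rose, with FC 2.66 (2.05 to 3.49) over 10C, from 210 reads against 79, and 96.3% of genes had a lower FC. Over 10L its FC in 10H was 2.50 (1.96 to 3.20), past the thresholds as well, where 16.4% of all genes were called and 7.69% were higher. In 24L it had FC 1.48 (1.24 to 1.76) and in 24H 1.59 (1.35 to 1.89), without passing. The call in 10H was lost at 4-fold and with a biological variation coefficient of 0.4 assumed.

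Members of the GADD45 family bind stress kinases and cell cycle proteins. Against their controls, gadd45ba, gadd45bb and gadd45ga passed the thresholds at 24 hpf only, though these 3 also had FCs above 1 in 10H. Of 5 family members in the table, gadd45aa included, 1 rose in 10H (gadd45aa), 2 rose in 24L and 3 rose in 24H, and none fell. Among all genes 6.69% rose in 10H, 3.5% in 24L and 11.9% in 24H. The median log2 FC of the list was -0.23 (10L), 0.57 (10H), 0.87 (24L) and 1.09 (24H), beside medians of all genes of -0.02, 0.02, -0.02 and -0.03. In 10H gadd45ba had FC 1.72 (1.58 to 1.87), gadd45bb 1.47 (1.36 to 1.59) and gadd45ga 1.49 (1.40 to 1.58). The gene gadd45bb had 210 (24C), 515 (24L) and 720 (24H) normalized counts, and rose in 24L (FC 2.45, 2.08 to 2.91) and in 24H (FC 3.44, 2.94 to 4.04). Its paralog gadd45ba had 398, 818 and 1083 normalized counts in the same libraries, and rose with FC 2.06 in 24L (1.81 to 2.33) and 2.72 in 24H (2.42 to 3.06). The gene gadd45ga, listed as gadd45g, had 516, 941 and 1095 normalized counts, and rose in 24H alone of the treated groups (FC 2.12, 1.91 to 2.36). Each of these stood higher in 10C than in 24C, with 1080 for gadd45bb, 924 for gadd45ba and 1999 for gadd45ga. The closest paralog of gadd45aa, gadd45ab, passed in none of the 4 groups and had FC 0.747 in 10H (0.602 to 0.924) and 1.46 in 24H (1.30 to 1.64). In zebrafish gadd45ba and gadd45bb are also known for a part in somite segmentation.

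**Figure D2:**
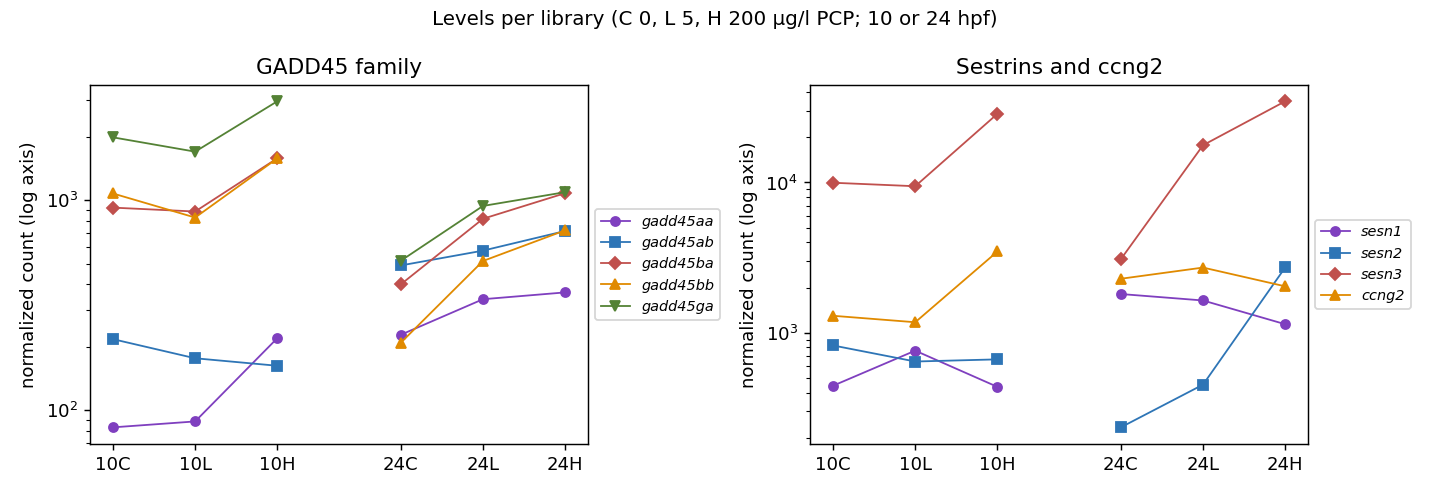
Normalized counts (vertical, log axis) of the GADD45 family (left) and of the sestrins with ccng2 (right) in the 6 libraries, with lines joining the doses of 1 age. At 24 hpf gadd45ba and gadd45bb step up from 24C over 24L to 24H, and sesn3 stands at 3086 (24C), 17687 (24L) and 34674 (24H).

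The Puma gene bbc3 had 87 to 184 reads, the fewest of the 5 in each library but 10C and 10L, where gadd45aa had fewer. It had 91.3 (10C), 152 (10L) and 118 (10H) normalized counts at 10 hpf, and 107 (24C), 125 (24L) and 159 (24H) at 24 hpf. The treated libraries stood above the control of their age in each case, though not in order of dose at 10 hpf. Its FC was 1.67 in 10L (1.28 to 2.18) and 1.29 in 10H (0.966 to 1.73), and at 24 hpf it was 1.17 in 24L (0.888 to 1.54) and 1.48 in 24H (1.16 to 1.91). None passed, and the intervals of 10H and 24L include 1.

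Of the other BCL2 family genes, 17 were in the table. In 10H 3 rose and none fell (13.0% of all genes were called), and in 24H 3 rose and none fell (28.3%). The shares of all genes were 7.68% in 24L, where none was called, and 6.04% in 10L. In 10L 1 rose, bcl2a (listed as bcl2, a survival gene), on 17 reads against 1 in 10C (FC 14.3, 2.25 to 599). The genes that rose in 24H encode both survival and death proteins. The anti-apoptotic mcl1b had FC 3.42 in 10H (3.24 to 3.61) and 2.09 in 24H (2.00 to 2.18), and bcl2l1, which encodes Bcl-xL, had 2.09 in 24H (1.94 to 2.26). The BH3-only gene bmf1, a death activator like bbc3, rose in 24H as well (FC 2.46, 1.40 to 4.55), with 18.2 (24C), 33.0 (24L) and 44.8 (24H) normalized counts. In 10H the anti-apoptotic bcl2l10 (FC 2.12, 2.04 to 2.20) and the pore-forming baxb (FC 2.11, 1.71 to 2.60) rose. The classical p53 targets baxa and pmaip1, which encodes Noxa, did not pass. In 24H baxa had FC 0.757 (0.699 to 0.820) and pmaip1 1.05 (0.562 to 1.98). The reads of pmaip1 were 26 in 24H and 20 in 24C.

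**Figure D3:**
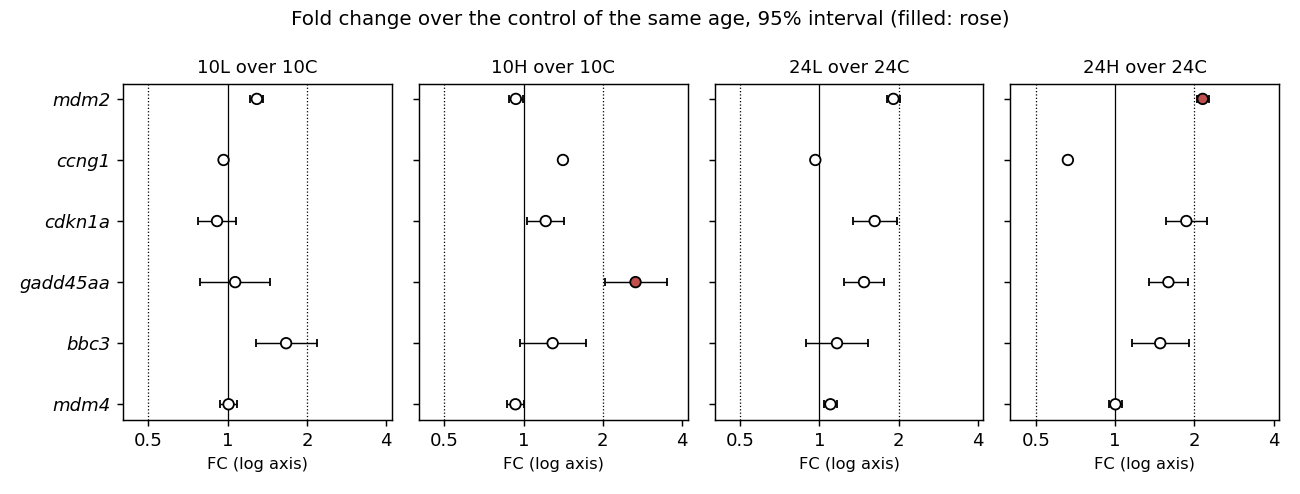
FC over the control of the same age (horizontal, log axis) of the 5 targets and mdm4 in 10L, 10H, 24L and 24H; bars are 95% Clopper-Pearson intervals, dotted lines mark 2-fold, and filled points are genes that rose. Only gadd45aa in 10H (FC 2.66) and mdm2 in 24H (FC 2.15) are filled.

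Genes of the rest of the pathway were taken from 8 lists by role. Together they held 119 genes of the table besides the 5 targets, with 3 up and 2 down past the thresholds in 10L, and 5 up and 3 down in 10H. The numbers at 24 hpf were 4 up and 2 down at 5 μg/l, and 18 up and 15 down at 200 μg/l. The median log2 FC of these genes was -0.11 (10L), -0.0014 (10H), -0.09 (24L) and -0.18 (24H). The medians of all genes were -0.02, 0.02, -0.02 and -0.03. In 24H, 11.9% of all genes rose and 16.4% fell.

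In the list of p53 relatives and regulators, 3 of 12 rose in 24H, where 28.3% of all genes were called and 11.9% rose. None was called in the other treated groups, where the shares of all genes were 6.04% (10L), 13.0% (10H) and 7.68% (24L). The p63 gene tp63, a regulator of the epidermis, had 2073 (24C), 3748 (24L) and 5576 (24H) normalized counts, and FC 2.69 in 24H (2.56 to 2.83). Its level in 10C was 10209, and its FC in 10H was 0.636 (0.616 to 0.657). The deacetylase sirt1 rose in 24H with FC 2.49 (2.35 to 2.63). The phosphatase ppm1da, listed as ppm1d, which in mammals is induced by p53 and switches it off, had FC 1.22 in 24H (1.16 to 1.28) and 1.21 in 10H (1.17 to 1.26).

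Other p53 targets went both ways in 24H, where 5 of 30 rose and 6 fell, with a median log2 FC of -0.19. All genes did so as well, with 11.9% higher and 16.4% lower in 24H. Of the same 30, 2 rose in 10L (6.04% of all genes were called), 2 rose and 1 fell in 10H (13.0%), and 1 rose and 1 fell in 24L (7.68%). Among the targets that rose were the sestrins sesn2 and sesn3, which restrain mTORC1. The gene sesn3 had 9957 (10C), 9439 (10L) and 28620 (10H) normalized counts at 10 hpf, and 3086 (24C), 17687 (24L) and 34674 (24H) at 24 hpf. It rose in 10H (FC 2.87, 2.81 to 2.94), in 24L (FC 5.73, 5.51 to 5.96) and in 24H (FC 11.2, 10.8 to 11.7). The gene sesn2 had 235 (24C), 453 (24L) and 2726 (24H) normalized counts, and rose in 24H (FC 11.6, 10.1 to 13.3). In mammals sesn2 is also a target of ATF4 and sesn3 of FoxO factors, and which regulator acted here was not tested. The third sestrin, sesn1, a p53 target as well, did not pass in any treated group. Its FC was 1.71 in 10L (1.52 to 1.93) and 0.983 in 10H (0.857 to 1.13). At 24 hpf it was 0.906 in 24L (0.846 to 0.971) and 0.630 in 24H (0.586 to 0.677).

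The p53-inducible ribonucleotide reductase subunit rrm2b also rose in 24H, with 4099 (24C), 5729 (24L) and 9320 (24H) normalized counts (FC 2.27, 2.19 to 2.36). So did rprmb, a Reprimo gene of the G2 arrest, with 102 in 24C, 192 in 24L and 475 in 24H (FC 4.67, 3.75 to 5.87). The other Reprimo gene, rprma, went the opposite way and fell in 24L and in 24H. Its reads were 27 in 24C, 6 in 24L and 8 in 24H. The genes that fell included phlda3, an inhibitor of Akt, with 389 (24C), 257 (24L) and 155 (24H) normalized counts (FC 0.398, 0.331 to 0.478). The replication clamp pcna fell with FC 0.313 (0.309 to 0.318) and triap1, a survival factor, with 0.440 (0.390 to 0.496). The gene plk2a fell as well (FC 0.460, 0.383 to 0.551). So did zmat3, listed as LOC561535, on only 2 reads in 24H against 14 in 24C. The death receptor gene fas had few reads, with 0 in 10H against 8 in 10C (at least 2.66-fold lower against a floor of 3 counts per library, a call lost where 10 reads on average are required), and 26 in 24H against 6 in 24C (FC 3.49, 1.41 to 10.4).

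**Figure D4:**
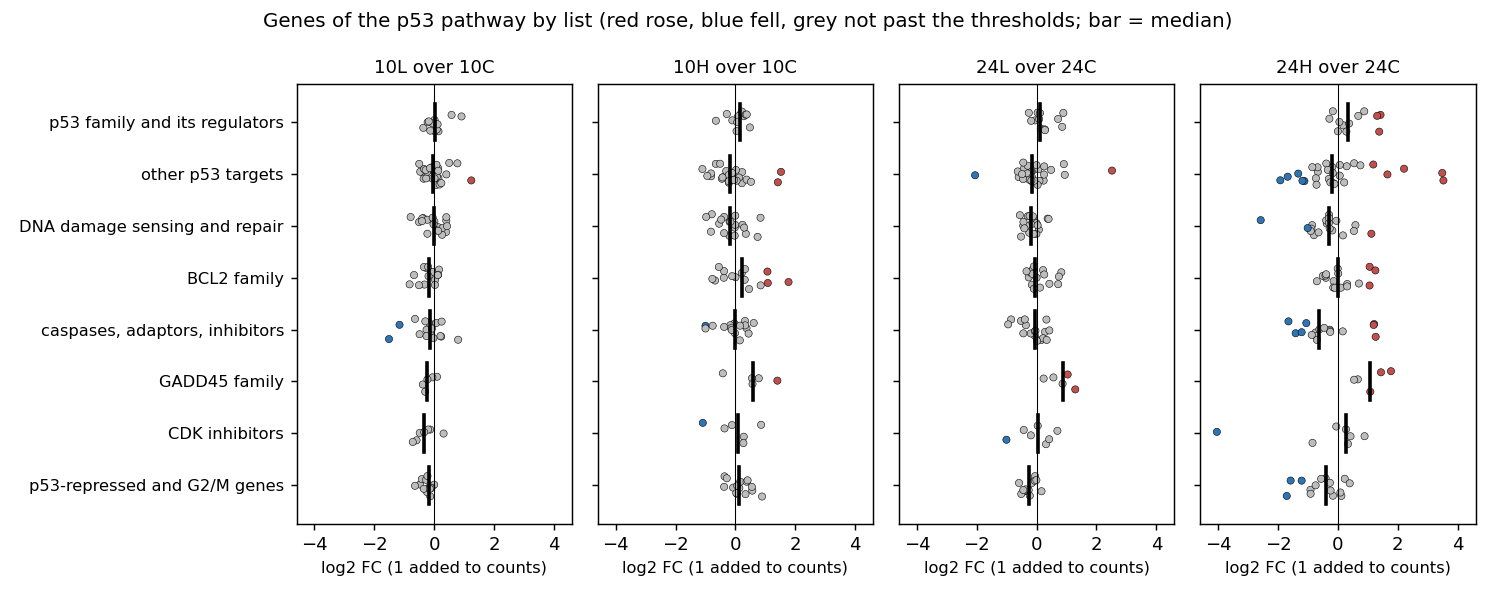
Log2 FC with 1 added to the normalized counts (horizontal axes) of the genes of 8 pathway lists with at least 10 reads on average, in 10L, 10H, 24L and 24H. Each point is a gene, red where it rose, blue where it fell and grey where it did not pass, and the black bar is the list's median, which is highest for the GADD45 family in 24H (1.09).

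In the list of DNA damage sensing and repair, none of 19 genes was called in 10L, 10H or 24L. There 6.04%, 13.0% and 7.68% of all genes were called. In 24H, where 28.3% of all genes were called, 1 of the list rose and 2 fell. The nuclease ercc5, of nucleotide excision repair, rose (FC 2.18, 1.98 to 2.40). The histone gene h2ax, listed as h2afx, fell to 206 normalized counts in 24H, against 1233 in 24C (FC 0.167, 0.145 to 0.192), and fanci fell with FC 0.497 (0.446 to 0.554). Of the genes that drive the cell cycle or are repressed by p53, none of 15 was called in 10L, 10H or 24L. In 24H, where 11.9% of all genes rose and 16.4% fell, none of the 15 rose and 3 fell. They were the kinase cdk2 (FC 0.306, 0.284 to 0.330), its cyclin ccne2 (FC 0.335, 0.314 to 0.358) and birc5a, which encodes survivin (FC 0.433, 0.405 to 0.462).

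Of 17 genes of caspases, their adaptors and inhibitors, 3 rose and 4 fell in 24H, where 28.3% of all genes were called. In the other groups none rose, 2 fell in 10L (6.04% of all genes), 1 fell in 10H (13.0%), and none was called in 24L (7.68%). The initiator casp9, which acts after the mitochondrion releases cytochrome c, rose (FC 2.41, 2.04 to 2.85), as did the inhibitors xiap (FC 2.32, 2.15 to 2.51) and birc2 (FC 2.29, 2.19 to 2.40). The inhibitor birc5a, counted in the cell cycle list as well, fell (FC 0.433). The inflammatory caspases caspa (FC 0.317, 0.253 to 0.395) and caspb (FC 0.376, 0.328 to 0.430) also fell. The executioner casp3a had 3573 (24C), 2487 (24L) and 2137 (24H) normalized counts, and its FC of 0.598 in 24H (0.568 to 0.630) did not pass. The apoptosome gene apaf1 had FC 1.12 (1.03 to 1.22).

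Between the ages, the targets behaved unlike one another in the vehicle embryos. The gene mdm2 had FC 0.990 (0.931 to 1.05) for 24C over 10C, ccng1 had 1.61 (1.58 to 1.64), cdkn1a 0.644 (0.529 to 0.781), bbc3 1.17 (0.870 to 1.58) and gadd45aa 2.76 (2.12 to 3.62). Only gadd45aa passed the thresholds, as did 46.8% of all genes (28.6% of all were higher and 18.2% lower in 24C). In the embryos kept in 5 μg/l, gadd45aa rose as well, with FC 3.82 (3.05 to 4.83) for 24L over 10L, where 43.4% of genes were called and 27.4% were higher. In those kept in 200 μg/l, gadd45aa had FC 1.65 (1.40 to 1.96) for 24H over 10H and did not pass, whereas mdm2 rose, with 2.28 (2.16 to 2.40), where 45.1% of genes were called and 26.1% were higher.

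Between the doses at 24 hpf, none of the 5 targets passed for 24H over 24L, where 17.7% of all genes did and 6.74% were higher. The FC of ccng1 was 0.685 (0.673 to 0.697), that of bbc3 1.27 (1.00 to 1.61) and that of gadd45aa 1.08 (0.931 to 1.25). At 10 hpf the FC of mdm2 for 10H over 10L was 0.725 (0.684 to 0.767), that of ccng1 1.46 (1.44 to 1.49), that of cdkn1a 1.33 (1.14 to 1.56) and that of bbc3 0.774 (0.604 to 0.987). The order of the 2 doses at 10 hpf therefore differed from gene to gene, with mdm2 and bbc3 lower and ccng1, cdkn1a and gadd45aa higher in 10H.

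**Figure D5:**
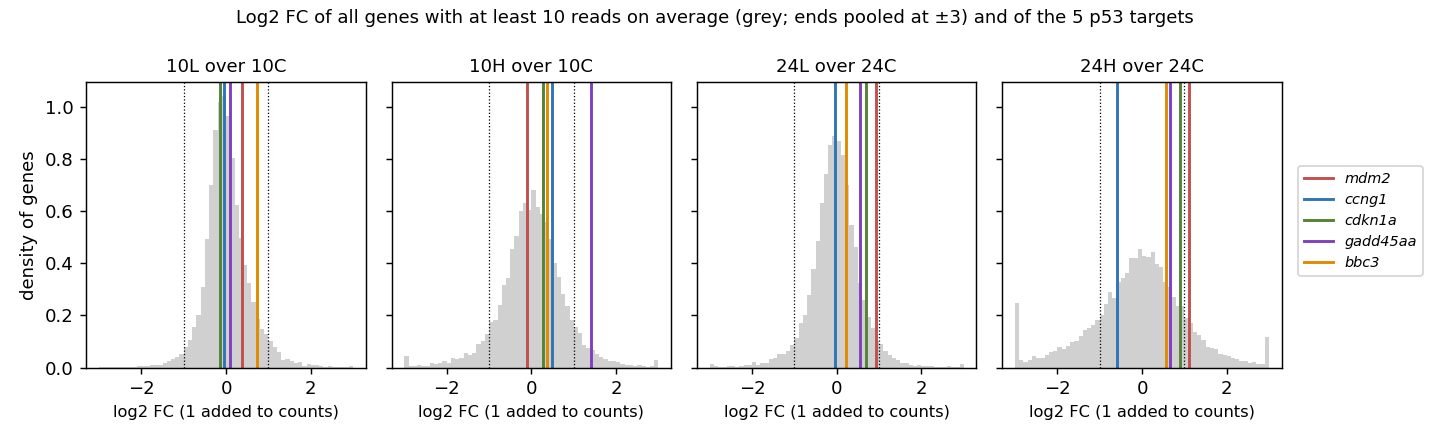
Distribution of the log2 FC (horizontal, 1 added to the normalized counts) of all genes with at least 10 reads on average (grey, density, ends pooled at 3 and -3) in 10L, 10H, 24L and 24H, with the 5 targets as coloured lines and 2-fold as dotted lines. In 24L mdm2 lies above 95.2% of these genes, and in the wider distribution of 24H above 87.7%.

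Genes with the most similar pattern were sought by the root-mean-square difference of log2 normalized counts over the 6 libraries, after each gene was centred on its own mean. For mdm2 they were the histone variant gene h2afy2 (0.081), the transketolase tkt (0.11) and the coat protein gene sec24d (0.13), where mdm2 itself varied by 0.47 about its mean. For ccng1 they were spryd4 (0.077), the caspase casp6 (0.10) and phpt1 (0.12). For cdkn1a they were the lipid kinase pi4kab (0.014), the transporter abca3 (0.068) and the cyclin ccnt2a (0.085), and 156 genes lay within 0.2 of it. For bbc3 they were sh3pxd2b (0.075) and the stress kinase mapk14b (0.088). For gadd45aa they were bnip3lb (0.20), the sorting nexin snx10a (0.21) and ascc3 (0.21), of which only the first was within 0.2. Within 0.2 there were 26 genes for mdm2, 57 for ccng1 and 81 for bbc3. None of the 5 targets was among the 3 nearest genes of another, but so short a list cannot show whether the targets vary together.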

How the data were processed

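RNA from pooled whole embryos of 6 groups, 1 library each, was sequenced on an Illumina platform. The authors mapped the reads with Tophat (Zv9 in the labels, Zv10 in the paper), annotated them by BLAST against the human genome and scaled the libraries with edgeR (TMM). How reads were counted is not given in the sources used. The signal deposited for each gene is this normalized count. In each library 100% of the values were whole multiples of the smallest value above 0 (tolerance 0.001 reads), and this step (0.862 to 1.07) gave back the reads.

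Of 21228 entries, 11 that merge clone-derived transcripts (13.9% to 15.5% of the reads of a library) were left out, which left 21217 genes. The paper used DEGseq. Here its thresholds were applied to a two-sided exact binomial test (2 times the smaller tail) given the deposited scaling. The test was tried on simulated data that held counting error alone, without variation between pools of embryos. In 24H the paper reports more transcripts up than down, whereas here 2526 genes rose and 3486 fell. The paper also names 10L as the only treatment with more genes up than down, so its own statements on direction differ. Here 775 genes rose and 507 fell in 10L. The members and lists were chosen with earlier results of these data known. Of 148 other symbols, 99 matched by name, 21 through RefSeq (GRCz12tu) and 28 were not matched. Named genes were the 5 targets, mdm4, the 3 highest and 3 lowest called genes of a list whose higher library had 50 reads or more, paralogs of the targets, and the 3 genes of most similar pattern (at least 50 reads on average, no LOC or clone name). Genes named outside this rule, chosen after their values were seen, were fas, casp3a, apaf1, sesn1, rrm2b, ppm1da, baxa, pmaip1, bcl2a and cdkn2a/b. So were rprma, plk2a and zmat3. List medians took genes with at least 10 reads on average, with 1 added to the normalized counts. Alternatives were median-of-ratios or library-total scaling, keeping genes with 10 reads on average, adding 1 to values, a 4-fold threshold, 2-fold without a test, Benjamini-Hochberg adjusted p, and edgeR 4.0.16 (exact test) where a biological variation coefficient of 0.2 or 0.4 was assumed. Python 3.11.15, scipy 1.17.1 and R 4.3.3 were used. Some genes that the rule names are not reported here. No replicate was there to leave out.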

Additional observations from a re-analysis of the deposited data

Results flagged for a closer look

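At 200 μg/l the FC of mdm2 was above 1 at 24 hpf and below 1 at 10 hpf, with both intervals clear of 1. The log2 FC in 24H minus that in 10H was 1.20 (1.08 to 1.32, normal approximation of the read counts, counting error only). The gene ccng1 went the opposite way, with a log2 FC lower at 24 hpf than at 10 hpf by a difference of -1.09 (-1.13 to -1.06). The death receptor gene fas was called in opposite directions at the 2 ages, lower in 10H (0 reads, against 8 in 10C) and higher in 24H (FC 3.49, from 26 reads against 6 in 24C). The call in 10H rests on 8 reads and is lost where 10 reads on average are required, so that the opposite directions are then gone. With 1 library per group, none of these differences between ages was tested against variation between pools of embryos.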

How the results depend on the processing

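With 1 library per group the calls carry counting error alone, and no p here speaks of pools of embryos. No paired analysis was possible because each group has 1 library. Among the alternatives, only the other scalings and the added 1 could change an FC. The rest changed a filter, threshold or test alone, so that direction was fixed there. Of 405 values of a target's FC under an alternative, 391 kept direction and side of the thresholds, 11 kept direction but no longer passed, and 3 turned direction. The last were all under scaling to library totals, with FC 1.06 for ccng1 in 10L over 10C, 1.03 for mdm2 in 24C over 10C and 1.03 for cdkn1a in 24H over 10H. That scaling moved the median log2 FC of all genes from -0.02 to 0.11 in 10L (the share of calls that were higher went from 60.5% to 74.6%), from 0.06 to -0.09 for 10H over 10L (46.9% to 34.1%) and from 0.03 to -0.10 for 24L over 10L.

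At 4-fold, 0 targets were called in 10H, 24H, 10H over 10L, 24C over 10C, 24L over 10L and 24H over 10H, where 1 was called otherwise. With a biological variation coefficient of 0.4 assumed in edgeR the count was 0 as well in these comparisons, except 24L over 10L. The count of 0 at 4-fold followed from the FCs alone, as the largest of any target was 3.82 (gadd45aa, 24L over 10L). Of the pathway genes in 10L, 5 were called, against 3 with at least 10 reads, 2 at 4-fold and 2 with a coefficient of 0.4. In 10H 8 were called, against 1 at 4-fold, 16 at 2-fold with no test and 2 with 0.4. In 24L 6 were called, against 3 at 4-fold and 2 with 0.4. In 24H 33 were called, against 7 at 4-fold and 8 with 0.4. Over all genes in 24H, 2526 rose and 3486 fell, 2465 and 3267 with a coefficient of 0.2, and 908 and 1528 with 0.4. The counts over all genes dropped in the other groups as well. At 4-fold they were 207 and 196 in 10L, 389 and 451 in 10H, and 199 and 250 in 24L. With a coefficient of 0.4 they were 164 and 90 in 10L, 330 and 364 in 10H, and 160 and 192 in 24L.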

Other observations

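Of the 119 genes of the p53 pathway other than the 5 targets, 20 were higher and 27 lower in 24C than in 10C (39.5% called, against 46.8% of all genes). Over all genes 28.6% were higher and 18.2% lower. Of 17 genes of caspases, their adaptors and inhibitors, 7 were higher, none was lower and 10 were not called in 24C. Of 12 p53 relatives and regulators, 1 was higher and 5 were lower. Of 15 genes of the cell cycle or repressed by p53, 6 were lower and none was higher.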
